A study of Mus musculus with 6 samples.

Results

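Potassium channel genes were taken from a cortex RNA-seq table as every gene whose symbol starts with Kcn, one or more letters and a number, and 96 of the 23621 genes listed met this. Of these, 91 encode channel subunits of 20 subfamilies and 5 are non-coding RNAs named after a channel gene (Kcnq1ot1, Kcnd3os, Kcnab3os, Kcnmb4os1 and Kcnmb4os2). The libraries came from the dissected cortex of newborn mice at postnatal day 0, with 3 libraries from Tle4-/- null mutants and 3 from wild-type littermates. All animals shared a mixed background of the strains C57BL/6J, 129S6 and CD1. Tle4 encodes a transcriptional co-repressor of the Groucho family that marks corticothalamic projection neurons, and the study asks how such neuron identities arise. The allele is described only as null, without saying which exons it removes, and neither a Cre driver nor any treatment is given. The labels do not say which litter or animal gave each library, so the spread behind the p-values may be partly technical.

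Potassium channels let potassium leave or enter cells, set the resting potential and end action potentials. Voltage-gated, calcium-activated and sodium-activated pores open with activity, inward rectifiers and leak channels act near rest, and auxiliary subunits change how pores gate or where they go. In the newborn cortex, where neurons are still acquiring mature firing, these genes are expressed unevenly across cell types and stages. In whole tissue, fewer cells of a type and less RNA per cell cannot be told apart.

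The libraries held 18617408 to 21632607 counts. Tle4 had 1481, 1659 and 1664 counts in the mutants and 3884, 3171 and 3091 in the wild types (log2 fold change -1.06, edgeR adjusted p = 0.0377, between 5.33e-08 and 0.207 over the 13 alternatives). Xist, the RNA of the inactive X chromosome, had 66194 to 79080 counts in the mutants and 11 to 37 in the wild types, so sex and genotype cannot be told apart. Ddx3y, a Y-linked gene, had 0 to 2 counts in the mutants and 1463, 1891 and 2 in the wild types, so wild-type replicate 3 had little of either RNA. The summed level of 9 excitatory cortical neuron markers was 2380 to 3030 CPM in the mutants and 2560 to 2840 CPM in the wild types. Marker sums differed between single libraries for the meninges (278, 561 and 383 CPM in the mutants, 35.1, 720 and 262 CPM in the wild types) and for the choroid plexus (131 CPM in mutant replicate 3, 19.1 to 47.6 CPM in the other libraries).

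No potassium channel gene passed the threshold over all genes in the main test, and the one with the smallest p was Kcnab1, an auxiliary subunit at lower values in every mutant library. Kcnab1 encodes Kv beta 1, a cytoplasmic subunit that binds Shaker-type (Kv1) pores and speeds their inactivation. Counts were compared by edgeR's quasi-likelihood test with Benjamini-Hochberg adjustment over 16274 genes, of which 82 were members. Of the 82, 0 had an adjusted p under 0.05, against 0.111% of all genes tested (0.0492% higher and 0.0614% lower in the mutant). Apart from Kcnab1 every tested member had an adjusted p of 0.9996. At an unadjusted p under 0.05 there were 8 members, 4 higher (Kcna2, Kcnq3, Kcnq5 and Kcnj2) and 4 lower (Kcnab1, Kcna1, Kcnk9 and Kcnt1) in the mutant. This was 9.76% of the members tested, against 3.45% of all genes (1.71% higher and 1.73% lower). The count varied with the library left out. Without mutant replicate 1, 2 of the 82 (Kcnab1 and Kcna2) were at that level, against 2.95% of all genes. There Kcnj2 had a log2 fold change of 0.42 and Kcna1 of -0.50, against 0.45 and -0.67 with all libraries. Without mutant replicate 2 there were 10, against 3.49% of all genes, and without mutant replicate 3 there were 8, against 2.95%. Without wild-type replicate 1 there were 5, against 4.77% of all genes. Leaving out wild-type replicate 2 gave 10, against 5.24%, and leaving out wild-type replicate 3 gave 5, against 2.55%. The DESeq2 Wald test on the same counts gave 1 member an adjusted p under 0.05, Kcnab1, against 0.357% of all genes, and limma-voom gave 0.

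**Figure D1:**
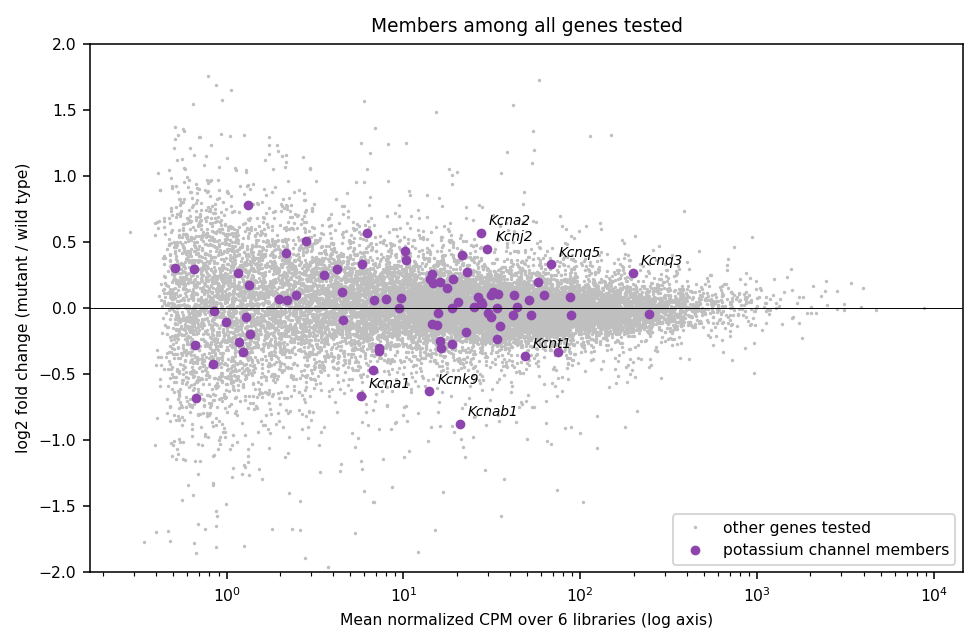
Log2 fold change (mutant over wild type, vertical axis) against mean normalized CPM over the 6 libraries (horizontal log axis) for all genes tested, with the 82 potassium channel members in purple. The members lay between -0.88 and 0.78, and 27 other genes fall beyond the vertical axis.

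The family as a whole stood near 0. The tested members had a median log2 fold change of 0.06, with quartiles at -0.12 and 0.21, against a median of -0.01 and quartiles at -0.11 and 0.12 for all genes tested. The median was -0.016 without wild-type replicate 3, whose members lay lower as a group than those of the other libraries. In 74 of the 82 the absolute log2 fold change was under 0.5, and it reached 1 in 0. Above 0 lay 48 members and below 0 lay 34. Genotypes did not overlap in normalized CPM (counts scaled to library size) in 12 members, or 14.6%, against 7.93% of all genes tested (4.18% higher and 3.75% lower). Those with all mutants higher were Kcna2, Kcnq5, Kcnj4, Kcnk10, Kcns3, Kcnmb4 and Kcnmb4os2, and those with all mutants lower were Kcnab1, Kcnab2, Kcna1, Kcnj11 and Kcnk9.

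**Figure D2:**
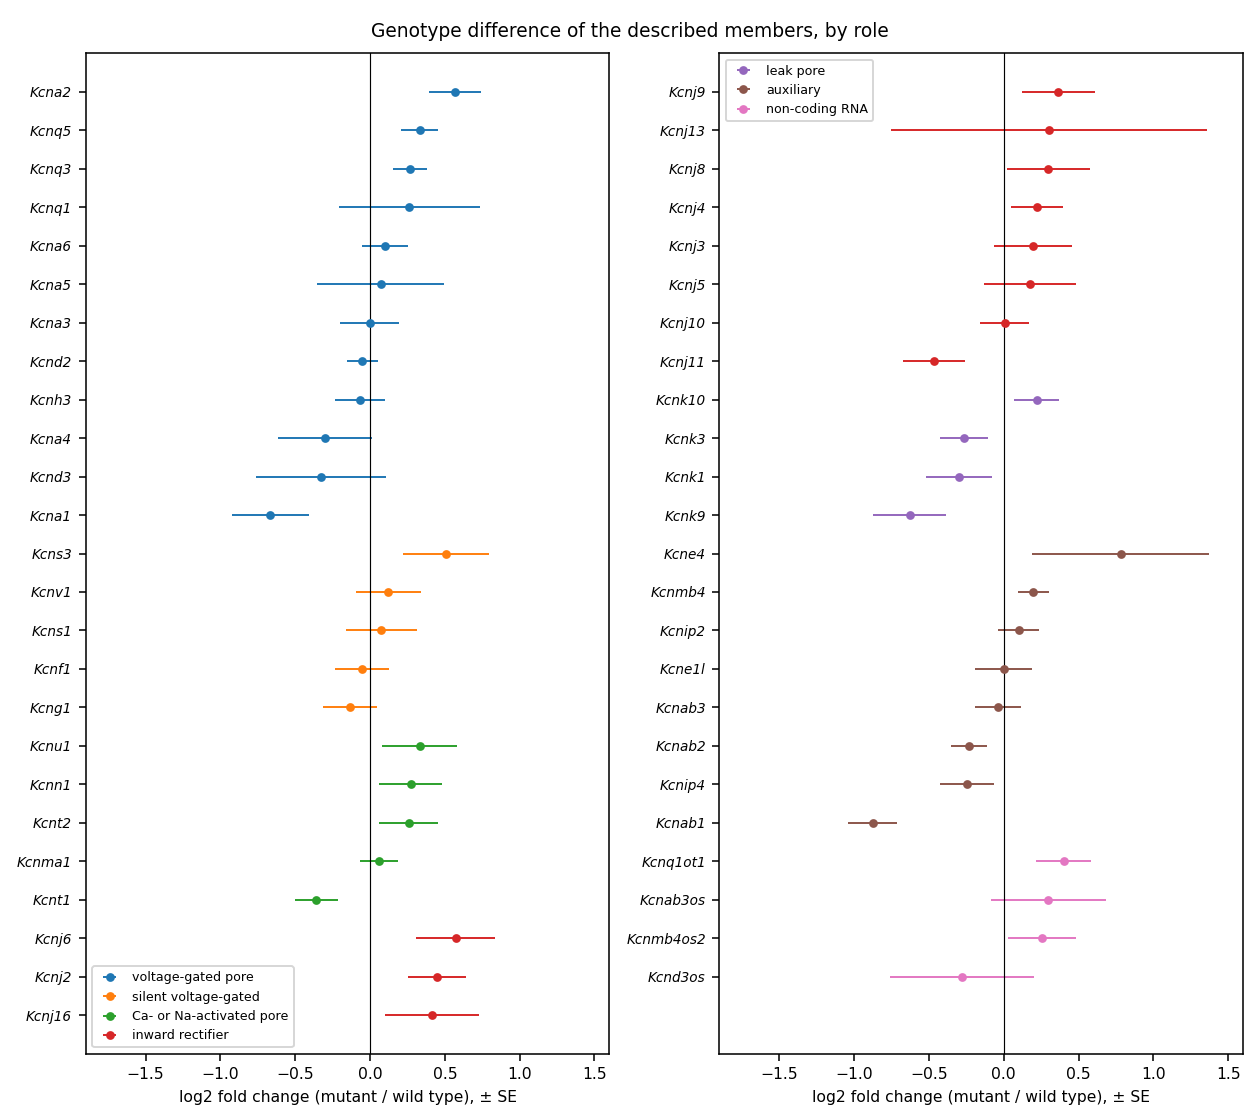
Log2 fold change with its standard error (SE) for 49 of the 82 tested members, those given in the text, grouped by role, with positive values for higher levels in the mutant. Kcnab1 at -0.88 and Kcna1 at -0.67 lie on the low side and Kcna2 at 0.57 and Kcnj6 at 0.57 on the high side.

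Levels per length are given as the deposited FPKM (counts scaled to library size and gene length). Expression reached a mean of 1 FPKM in 57 of the 96 members and 5 FPKM in 25. Kcnmb4, a beta subunit of the large-conductance calcium-activated (BK) channel, was highest at 15.7 ± 0.326 FPKM in the mutants and 13.8 ± 0.754 FPKM in the wild types (SD, n = 3 each). Kcnq3, a pore of the slow M-current, followed at 14.75 ± 1.89 FPKM in the mutants and 12.4 ± 1.11 FPKM in the wild types. These neighbours in the order do not differ beyond their spread. Kcnk9, Kcnd2 and Kcna3 had means of 11.6, 10.2 and 9.91 FPKM over the 6 libraries, and their libraries overlapped. The order depends on the gene length the authors divided by. The deposited counts and FPKM imply 1.21 kb for Kcnk9, which was number 3 of the members by FPKM and number 47 by CPM.

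**Figure D3:**
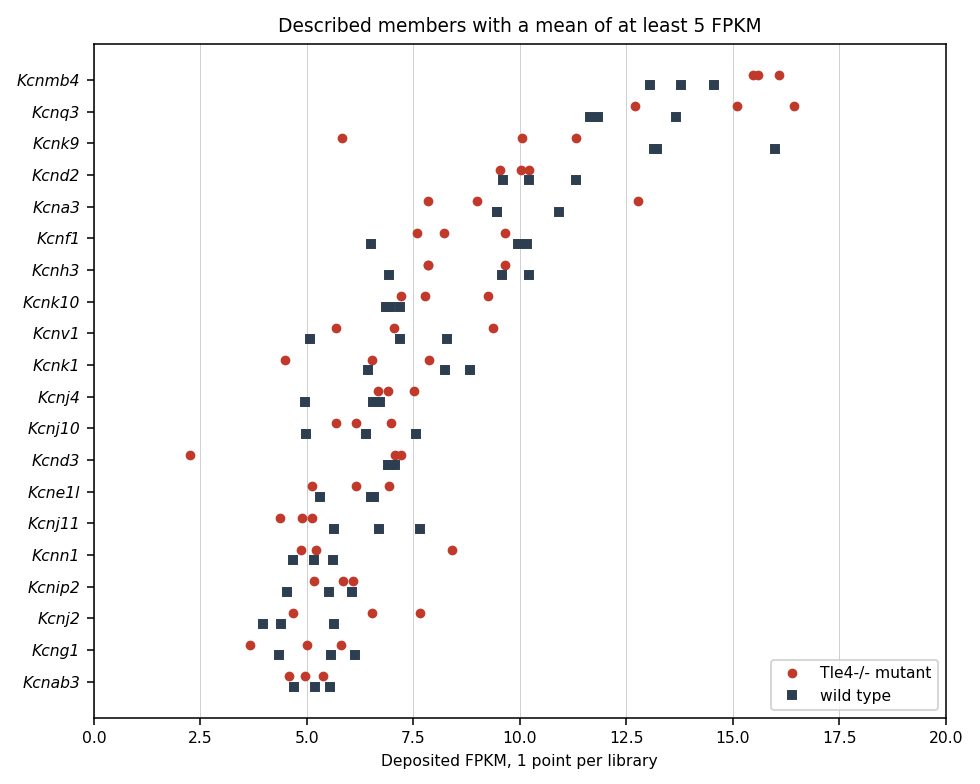
Deposited FPKM in each library (horizontal axis) for 20 of the 25 members with a mean of at least 5 FPKM, those given in the text, with mutants as red circles above wild types as dark squares. Kcnmb4 separates the genotypes, Kcnk9 lies lower in the mutants, and Kcnd3 stands at 2.25 FPKM in 1 mutant library against 6.90 to 7.20 FPKM in the other libraries.

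Among pore-forming voltage-gated genes, 28 of 29 were tested. At an unadjusted p under 0.05, 3 were higher and 1 lower in the mutant, against 1.71% and 1.73% of all genes. The 2 Shaker genes among them lay in opposite directions. Kcna2, whose Kv1.2 protein sits in axons and forms tetramers with other Kv1 subunits, stood at 29.0, 38.0 and 31.3 CPM in the mutants and 26.9, 21.1 and 18.2 CPM in the wild types. Every mutant was above every wild type, with a fitted fold of 1.48 (log2 fold change 0.57, SE 0.17). Kcna1, which encodes the Kv1.1 partner, stood at 3.41, 5.34 and 4.54 CPM in the mutants and 8.76, 6.78 and 5.54 CPM in the wild types. The genotypes did not overlap, although mutant replicate 2 and wild-type replicate 3 nearly met (log2 fold change -0.67, SE 0.26). Per length, Kcna2 was 3.80, 3.18 and 3.08 times Kcna1 in the mutants, against 1.38, 1.39 and 1.47 times in the wild types. This ratio was chosen after the values were seen and was not tested.

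The other Shaker genes had no member at an unadjusted p under 0.05. Kcna3, the highest of the subfamily per length at 9.87 ± 2.57 FPKM in the mutants and 9.95 ± 0.845 FPKM in the wild types (SD, n = 3 each), gave -0.00 on the log2 scale (SE 0.20), and its sign changed with the library left out. Kcna3 lies 63075 bases from Kcna2 on chromosome 3. Kcna1 lies on chromosome 6 between Kcna5 and Kcna6, which had log2 fold changes of 0.07 and 0.10. Kcna4, another pore of the subfamily, had -0.30 (SE 0.31), and Kcna7 had 0 to 2 counts per library and was not tested.

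Of the KCNQ genes, Kcnq3 and Kcnq5 were higher in the mutant at an unadjusted p under 0.05, against 1.71% of all genes. Both encode pores of the M-current, which restrains repetitive firing. Kcnq5 stood at 86.1, 72.0 and 68.9 CPM in the mutants and 55.7, 58.8 and 65.9 CPM in the wild types. The genotypes did not overlap (log2 fold change 0.33, SE 0.12). Kcnq3 stood at 242, 187 and 223 CPM in the mutants and 177, 194 and 171 CPM in the wild types. Mutant replicate 2 was below wild-type replicate 2, so the genotypes overlapped (log2 fold change 0.27, SE 0.11). Without mutant replicate 1 Kcnq3 had 0.18 (SE 0.12) and Kcnq5 0.23 (SE 0.12), neither at an unadjusted p under 0.05. Over the 13 alternatives Kcnq3 was at that level in 7 and Kcnq5 in 9.

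The other voltage-gated pores gave smaller or more variable values. In the Kv2, Kv3 and Kv4 subfamilies and the Eag, Elk and Erg subfamily 0 of 17 members had an unadjusted p under 0.05. For all genes the share was 3.45%. Kcnd2, a pore of the dendritic A-type current and the highest of the Kv4 genes per length, gave -0.05 on the log2 scale (SE 0.11) and kept that sign in all 13 alternatives. Kcnh3, highest per length of the Eag, Elk and Erg genes, had -0.06 (SE 0.17), with a sign that changed with the library left out. Kcnd3, another A-type pore, stood at 27.0, 84.7 and 87.1 CPM in the mutants and 86.3, 80.2 and 83.3 CPM in the wild types. Mutant replicate 1 stood apart from the other 5 libraries, and Kcnd3 was singled out after its values were seen. Its log2 fold change was -0.33 (SE 0.43), and 0.05 (SE 0.11) without that library. Silent subunits, which form channels only with Kv2 pores, had 8 of 10 members tested and 0 at that level. Kcns3 stood at 1.08, 1.18 and 0.979 FPKM in the mutants and 0.963, 0.786 and 0.544 FPKM in the wild types, a narrow separation (log2 fold change 0.50, SE 0.29). The highest per length of the silent subfamilies, Kcnf1, Kcng1, Kcnv1 and Kcns1, had log2 fold changes of -0.05, -0.13, 0.12 and 0.08.

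Of the calcium- and sodium-activated pores, 7 of 8 were tested and Kcnt1 alone had an unadjusted p under 0.05, against 3.45% of all genes. Kcnt1 encodes the sodium-activated pore Slack. It stood at 36.2, 44.2 and 48.0 CPM in the mutants and 61.1, 56.0 and 47.6 CPM in the wild types. The groups overlapped slightly, between mutant replicate 3 and wild-type replicate 3 (log2 fold change -0.36, SE 0.14). Its relative Kcnt2, or Slick, had 0.26 (SE 0.20). Kcnma1, the BK pore, had 0.06 (SE 0.12) and Kcnn1, a small-conductance calcium-activated pore, 0.27 (SE 0.21). Kcnu1, which encodes the sperm channel Slo3 and is grouped here as a relative of the BK pore, was listed at 1.51 FPKM in the mutants and 1.21 FPKM in the wild types on average, with 0.33 (SE 0.25).

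Inward rectifiers lay mostly above 0, in 11 of the 13 tested of 15. Their median log2 fold change was 0.22, against -0.01 for all genes tested. However, against 3.45% of all genes, 1 had an unadjusted p under 0.05. This was Kcnj2, the classical Kir2.1 pore, at 35.7, 41.8 and 25.7 CPM in the mutants and 24.3, 29.8 and 21.6 CPM in the wild types. The lowest mutant was below the highest wild type (log2 fold change 0.45, SE 0.19). Kcnj16 lies 38195 bases from Kcnj2 on chromosome 11 and had 0.41 (SE 0.31). Kcnj6, a pore of the G-protein-gated GIRK channel, stood at 8.09, 8.53 and 5.68 CPM in the mutants and 6.11, 5.39 and 3.49 CPM in the wild types, with overlap (log2 fold change 0.57, SE 0.27). The other GIRK genes Kcnj3, Kcnj5 and Kcnj9 had 0.19, 0.17 and 0.37. Kcnj4, highest per length of the rectifiers, had 0.22 (SE 0.17), and its lowest mutant nearly met its highest wild type.

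Kcnj11 lay in the opposite direction to most rectifiers. It encodes the Kir6.2 pore of the ATP-sensitive channel and stood at 6.03, 5.76 and 5.16 CPM in the mutants and 9.17, 6.42 and 7.85 CPM in the wild types. Every mutant was below every wild type (log2 fold change -0.47, SE 0.21). Abcc8, the SUR1 subunit that assembles with Kir6.2, was given by the list of channel partners and had -0.27 (SE 0.14), and Kcnj8, the Kir6.1 pore, had 0.30 (SE 0.28).

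Leak channels, the K2P genes, had 10 of 13 members tested, with 6 below 0. At an unadjusted p under 0.05 there was 1, Kcnk9, against 3.45% of all genes. Kcnk9 encodes TASK-3, an acid-sensitive leak pore, and is imprinted in the mouse brain, where the maternal copy is expressed. It stood at 7.06, 12.2 and 13.8 CPM in the mutants and 19.7, 15.5 and 15.9 CPM in the wild types. Every mutant was below every wild type, and mutant replicate 1 was the lowest (log2 fold change -0.63, SE 0.25). Without mutant replicate 1 its log2 fold change was -0.39 (SE 0.19), no longer at an unadjusted p under 0.05. That level was also lost without wild-type replicate 1 (-0.51, SE 0.27) and without wild-type replicate 3 (-0.68, SE 0.29). Kcnk3, the related TASK-1 pore, had -0.27 (SE 0.16), and Kcnk1, or TWIK-1, -0.30 (SE 0.22). Kcnk10, or TREK-2, stood at 23.5, 18.3 and 19.9 CPM in the mutants and 17.7, 17.1 and 18.2 CPM in the wild types, barely apart (log2 fold change 0.22, SE 0.15). Summed over the 13 genes, leak channels reached 34.4, 35.4 and 35.3 FPKM in the mutants and 41.4, 42.7 and 40.0 FPKM in the wild types. This sum weights genes with short models, such as Kcnk9, most, and was not tested. Kcnk9 alone gave 5.81, 10.1 and 11.3 FPKM in the mutants and 16.0, 13.2 and 13.2 FPKM in the wild types. Much of the difference in the sum thus lay in Kcnk9, and the separation is not shown for the other leak genes.

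Of 16 auxiliary subunit genes 12 were tested, and Kcnab1 was the one at an unadjusted p under 0.05, against 3.45% of all genes. Kcnab1 (ENSMUSG00000027827) lies on the plus strand of chromosome 3 from 65109384 to 65378223 on GRCm38. It stood at 17.2, 11.8 and 15.1 CPM in the mutants and 25.7, 27.1 and 28.1 CPM in the wild types. The highest mutant was well below the lowest wild type. It averaged 14.7 ± 2.74 CPM in the mutants and 27.0 ± 1.23 CPM in the wild types (SD, n = 3 each). The mutant level was 0.545 times that in wild types (log2 fold change -0.88, SE 0.16). By edgeR the adjusted p was 0.184. It was 0.000713 by the DESeq2 Wald test and 0.223 by limma-voom. In the authors' deposited table Kcnab1 has an adjusted p of 0.0443, and it is the only member among the 68 genes under 0.05 there. The log2 fold change was -1.004 to -0.74 over all 13 alternatives, with an unadjusted p under 0.05 in each, and the adjusted p passed the threshold only by the DESeq2 Wald test. Of the rows that overlap Kcnab1, A730090N16Rik, Gm38048 and A330015K06Rik, each had 1 to 10 counts per library, against 225 to 604 for Kcnab1.

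**Figure D4:**
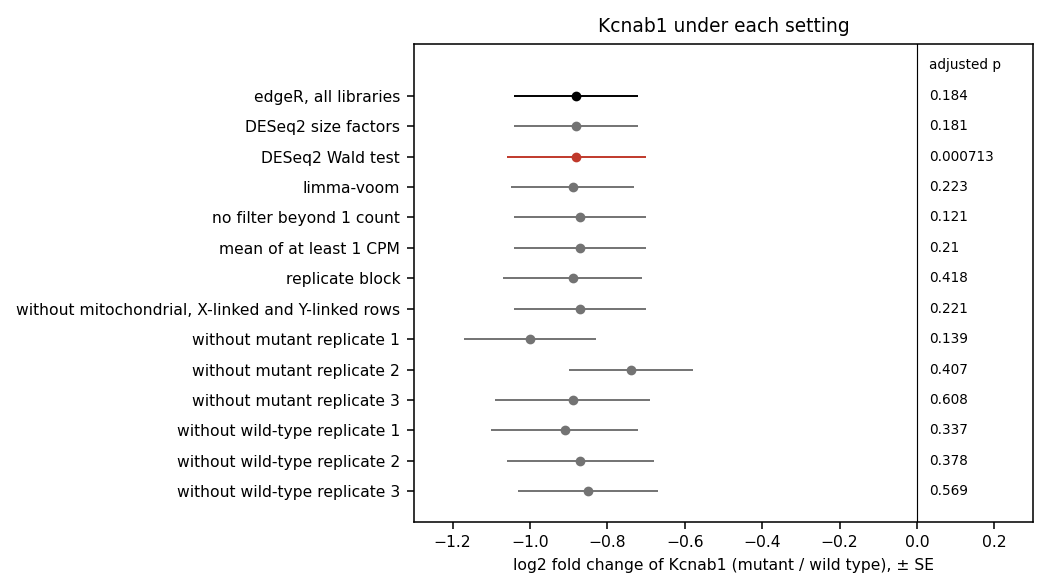
Log2 fold change of Kcnab1 (horizontal axis, with its SE) under the main edgeR test, at the top, and each alternative, with the adjusted p at the right. All values lie between -1.004 and -0.74, and the DESeq2 Wald test, in red, is the one with an adjusted p under 0.05.

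The other beta subunits showed smaller differences. Kcnab2, which encodes Kv beta 2, an axonal targeting partner of Kv1 pores, stood at 28.1, 31.0 and 33.7 CPM in the mutants and 39.3, 34.9 and 34.9 CPM in the wild types. The genotypes did not overlap (log2 fold change -0.23, SE 0.12). Kcnab3 averaged 4.97 ± 0.399 FPKM in the mutants and 5.15 ± 0.418 FPKM in the wild types (SD, n = 3 each) and had -0.04 (SE 0.16), with a sign that changed with the library left out. Per length, Kcnab1 was 0.642, 0.398 and 0.468 times Kcnab2 in the mutants and 0.684, 0.814 and 0.845 times Kcnab2 in the wild types, a ratio chosen after the values were seen. All 3 beta subunits together gave 8.83, 9.03 and 8.72 FPKM in the mutants and 11.0, 10.2 and 10.6 FPKM in the wild types. This sum was not tested. Kcnab1 alone averaged 1.29 FPKM in the mutants and 2.39 FPKM in the wild types, while Kcnab3 overlapped between genotypes.

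**Figure D5:**
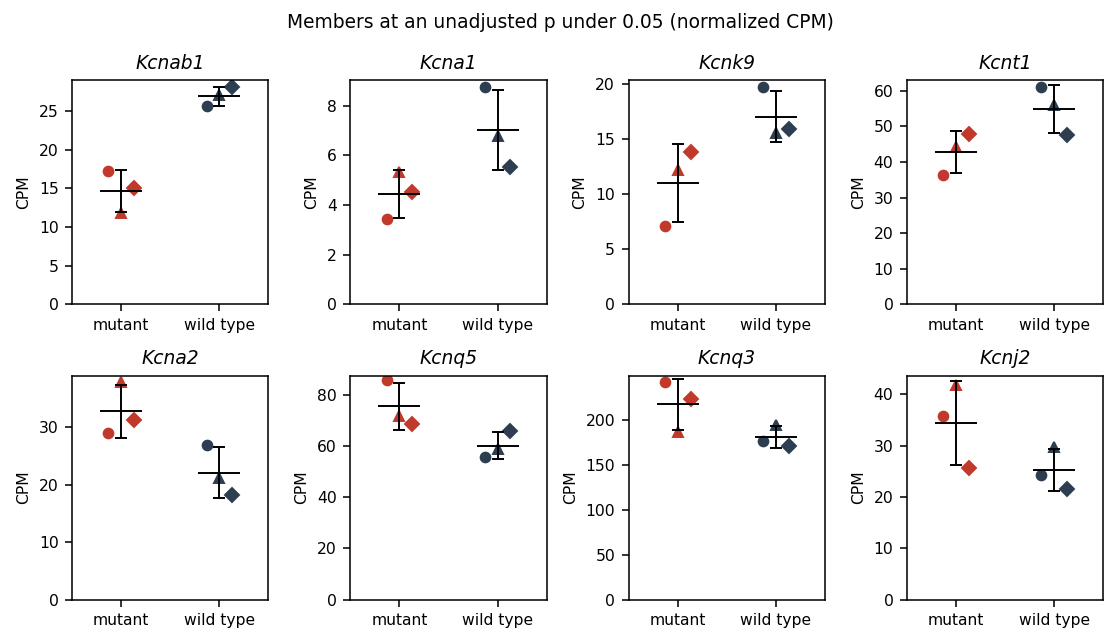
Normalized CPM in each library for the 8 members with an unadjusted p under 0.05, with mutants at the left in red and wild types at the right, replicates 1, 2 and 3 as circle, triangle and diamond, and bars for mean ± SD. Kcnab1 shows the widest gap, from 17.2 CPM in the highest mutant to 25.7 CPM in the lowest wild type, while Kcnt1, Kcnq3 and Kcnj2 overlap.

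Markers of striatal neurons, which border the dissected cortex and also express Kcnab1, lay mostly below 0 as well. Their median log2 fold change was -0.72, against -0.01 for all genes tested. Of 12 markers, 11 had negative values. Lower at an unadjusted p under 0.05 were 6, against 1.73% of all genes, and 1 was past the adjusted threshold, against 0.0614%. The markers summed to 305, 298 and 271 CPM in the mutants and 394, 291 and 417 CPM in the wild types, and none was at 0. In wild-type replicate 2, whose sum lay within the mutant range, Kcnab1 stood at 27.1 CPM, as in the other wild types. Single markers did not all follow the sum: Ebf1, which acts in striatal neuron differentiation, stood at 9.07, 9.21 and 9.23 CPM in the mutants and 24.9, 15.6 and 32.0 CPM in the wild types. Drd1, a dopamine receptor of the same tissue, stood at 26.6, 23.9 and 12.7 CPM in the mutants and 19.1, 15.3 and 28.3 CPM in the wild types. Interneuron markers had negative log2 fold changes in 10 of 12, with 4 lower at an unadjusted p under 0.05, against 1.73% of all genes. Their sums were 704, 789 and 739 CPM in the mutants and 847, 752 and 834 CPM in the wild types. The part of striatal or interneuron content in the Kcnab1 difference was not tested.

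Other auxiliary subunits gave no member at an unadjusted p under 0.05. Kcnmb4 stood at 62.9, 60.8 and 60.8 CPM in the mutants and 57.8, 49.3 and 53.7 CPM in the wild types. The genotypes did not overlap (log2 fold change 0.20, SE 0.10). Its opposite-strand neighbour Kcnmb4os2, which overlaps it by 716 bases, had 0.25 (SE 0.23), also with no overlap of genotypes, and whether reads were divided by strand is not given in the sources used here. The KChIP genes, calcium sensors that bind Kv4 pores, were between -0.25 for Kcnip4 and 0.10 for Kcnip2. Kcne1l, highest of the small single-pass subunits and X-linked, had 0.00 (SE 0.19), with a sign that changed between alternatives. Kcne4 had the largest positive estimate, 0.78, but with an SE of 0.59, and had 28, 58 and 13 counts in the mutants and 11, 35 and 14 in the wild types.

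Some members with few counts varied widely between libraries of the same genotype. Kcnj13, known from the choroid plexus, had 3, 24 and 6 counts in the mutants and 0, 18 and 10 in the wild types. Both Kcnj13 and Kcne4 were highest of their genotype in mutant replicate 2 and wild-type replicate 2, and lowest of the wild types in replicate 1. The meningeal sums given above have the same highest libraries in each genotype and the same lowest wild type. Among the mutants, the meningeal sum and Kcnj13 were lowest in replicate 1, but Kcne4 was lowest in replicate 3. The choroid plexus sum was instead highest in mutant replicate 3, at 131 CPM, where Kcnj13 had 6 counts. The part of meningeal or choroid plexus tissue in these values was not tested. Kcnj13 lies within Gigyf2 on the opposite strand, so its reads are uncertain. Kcnj10, the astrocyte rectifier, was at 5.68 to 6.97 FPKM in the mutants and 4.97 to 7.57 FPKM in the wild types, with a log2 fold change of 0.00 and an SE of 0.16. The 14 members not tested had at most 18 counts in any library, and all 96 had at least 1 count somewhere.

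The non-coding members gave no value at an unadjusted p under 0.05. Kcnq1ot1, an imprinted RNA of the paternal chromosome that lies within Kcnq1 on the opposite strand, stood at 23.5, 19.6 and 29.8 CPM in the mutants and 16.5, 21.1 and 17.5 CPM in the wild types. The genotypes overlapped (log2 fold change 0.40, SE 0.18). Kcnq1 itself had 9 to 38 counts per library and 0.26 (SE 0.47), and reads of the pair are uncertain without strand.

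Genes outside the family that handle potassium or partner its channels gave no call past the adjusted threshold. Of 24 channel partners 22 were tested, with 0 past the adjusted threshold. Against 1.71% higher and 1.73% lower of all genes, 0 were higher and 1 was lower at an unadjusted p under 0.05. This was Hpca, the calcium sensor hippocalcin, which takes part in the slow afterhyperpolarization, at 68.1, 59.0 and 54.2 CPM in the mutants and 88.3, 67.0 and 70.6 CPM in the wild types (log2 fold change -0.32, SE 0.14), and mutant replicate 1 overlapped wild-type replicate 2. The median of the partners was -0.05. Of 13 pumps and cotransporters 11 were tested, with 0 at either level in either direction and a median of 0.02. The smallest p there belonged to Atp1b1, a sodium pump beta subunit (log2 fold change 0.17, SE 0.11). Slc12a5, the neuronal potassium-chloride cotransporter KCC2, had 0.03 (SE 0.14) and was named after its value was seen.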

How the data were processed

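Per the file headers, the authors deposited 1 table of raw count and FPKM columns for each library. Their own p-value and its adjusted form stand beside these in the deposited table. Tools in the submitters' processing notes are StringTie, edgeR and HISAT2 2.0.4, with mm10 and GRCm38.p4 as builds. How reads were counted, from which annotation and with or without strand, is not given in the sources used here. The deposited FPKM served for levels between genes. In every member it equals library-scaled counts divided by a fixed length.

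The main test used edgeR 4.0.16 under R 4.3.3 (filterByExpr, TMM factors, robust quasi-likelihood fit, 2-sided), checked on simulated data. Each SE was derived from the log2 fold change and the F statistic. Members and gene lists were chosen with earlier results of these data known. Named genes were Tle4, Kcnab1, members with an unadjusted p under 0.05 or without overlap, the highest FPKM of each subfamily, and the 5 largest changes each way at a mean of at least 1 CPM. From the lists of other potassium genes, those with an unadjusted p under 0.05 were named, or else the 2 with the smallest p. Any other gene given a value is a relative, partner, neighbour or marker chosen after its value was seen. Some genes that these rules name are not reported here, although counts and medians include them. Replicates differed by more than sampling noise. Strands are from GENCODE M21. Alternatives were DESeq2 1.42.0 size factors and Wald test, limma-voom (limma 3.58.1), other filters, a replicate block, no mitochondrial or sex-linked rows, and each library left out.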

Additional observations from a re-analysis of the deposited data

How the results depend on the processing

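No potassium channel gene passed the adjusted threshold under any alternative except Kcnab1 by the DESeq2 Wald test, which gave 1 member. All genes past it numbered 18, and 58 by the DESeq2 Wald test, 10 without mitochondrial, X-linked and Y-linked rows, and 8 to 19 leaving out single libraries (8 without mutant replicate 3). With a replicate block they were 9, and members at an unadjusted p under 0.05 were 5. The numbers share no known origin, and the correlations of same-numbered libraries were -0.063, 0.1 and -0.018. Leaving out single libraries gave 2 to 10 such members, and a family median of -0.016 to 0.078.

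Signs near 0 changed for Kcna3 (0.001 with no filter beyond 1 count) and Kcne1l (-0.0041 with DESeq2 size factors, -0.0047 by the Wald test, -0.0099 by limma-voom, -0.0039 with the block). Leaving out single libraries gave -0.2262 to 0.144 for Kcna3, -0.113 to 0.0357 for Kcnab3, -0.102 to 0.1128 for Kcne1l, -0.2308 to 0.0757 for Kcnf1, -0.2858 to 0.0313 for Kcng1, -0.2128 to 0.0274 for Kcnh3, -0.0053 to 0.1771 for Kcnip2, -0.0342 to 0.1581 for Kcnma1, -0.0146 to 0.4202 for Kcnn1, -0.1267 to 0.3003 for Kcns1 and -0.0866 to 0.2792 for Kcnv1. The cause was not tested. With 3 libraries a genotype, differences as small as most members showed lay within their error and were not detectable here.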
